A study of Homo sapiens with 6 samples.

Results

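Granin and neuropeptide secretory genes are the 10 genes CHGA, CHGB, SCG2, SCG3, VGF, NPY, GAL, VIP, INSM1 and INSM2, looked up by name among 16500 distinct gene names in the deposited files. The list holds 5 granins, 3 peptide hormone genes and 2 zinc finger regulators, and all 10 members were found. The cells were BE(2)-C, an established human neuroblastoma line with an amplified MYCN gene, so every library came from a single line. One group had been transfected with WDR5 siRNA-1 and the other with control siRNA, each for 24 hours. WDR5 is a subunit of the complexes that methylate lysine 4 of histone H3, and the trimethyl form, H3K4me3, marks active promoters. The study held 6 libraries by chromatin immunoprecipitation and sequencing (ChIP-seq), of which the 2 H3K4me3 libraries, 1 for each siRNA, are used here. The other 4 were IgG and input libraries of the same 2 siRNA groups. With 1 library per siRNA there is no replicate error and no test.

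Granins are acidic proteins that help to build dense-core secretory granules, the vesicles in which neuroendocrine cells store peptide hormones and catecholamines. Prohormone convertases and a carboxypeptidase cut granins and prohormones inside these granules into active peptides. Chromogranin A, encoded by CHGA, is a clinical marker of neuroendocrine tumours, neuroblastoma among them, and neuropeptide Y and vasoactive intestinal peptide are made by sympathetic neurons and by tumours derived from them. INSM1 is a zinc finger repressor that drives neuroendocrine differentiation, and INSM2 is its relative.

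The promoter sequences of the members on which the results turn differ in the motifs and in the base composition before the gene's start. RefSeq promoters of the GRCh38.p14 build were matched by symbol for 6 members (CHGA, SCG3, VGF, NPY, VIP and INSM2). The 250 bases before the RefSeq start, 5′ to 3′ on the gene's strand, are given for VIP, which was listed only with WDR5 siRNA, for CHGA and VGF, which hold a cAMP response element, for INSM2, which stood at the head of its promoter table, and for SCG3, the only member classed as N-Myc-binding. Capitals mark matches on either strand. The motif TGACGTCA is the cAMP response element. Its core was searched as TGACG and is held by that palindrome on each strand. The motif CACGTG is the E-box bound by MYC-family proteins. The TATA box was searched as TATAAA, and in a shorter form as TATAA, which lies within the longer one. The sequences lie at chr6:152750547-152750796 on the plus strand for VIP, chr14:92922900-92923149 (plus) for CHGA, chr7:101165570-101165819 (minus) for VGF, chr14:35533914-35534163 (plus) for INSM2 and chr15:51681253-51681502 (plus) for SCG3.
VIP: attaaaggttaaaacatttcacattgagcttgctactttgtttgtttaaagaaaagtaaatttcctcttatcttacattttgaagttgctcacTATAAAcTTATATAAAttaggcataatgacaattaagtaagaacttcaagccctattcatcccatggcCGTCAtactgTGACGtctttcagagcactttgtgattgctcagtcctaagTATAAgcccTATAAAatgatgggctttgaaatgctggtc
CHGA: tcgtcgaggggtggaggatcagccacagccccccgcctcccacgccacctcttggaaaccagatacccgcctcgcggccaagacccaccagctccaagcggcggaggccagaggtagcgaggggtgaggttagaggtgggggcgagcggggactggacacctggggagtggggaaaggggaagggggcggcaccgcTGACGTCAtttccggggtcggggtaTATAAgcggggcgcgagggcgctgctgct
VGF: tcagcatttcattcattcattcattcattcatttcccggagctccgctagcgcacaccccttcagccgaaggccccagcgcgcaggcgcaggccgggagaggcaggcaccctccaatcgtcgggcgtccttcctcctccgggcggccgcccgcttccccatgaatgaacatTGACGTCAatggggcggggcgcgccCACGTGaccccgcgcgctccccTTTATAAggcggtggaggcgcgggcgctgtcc
INSM2: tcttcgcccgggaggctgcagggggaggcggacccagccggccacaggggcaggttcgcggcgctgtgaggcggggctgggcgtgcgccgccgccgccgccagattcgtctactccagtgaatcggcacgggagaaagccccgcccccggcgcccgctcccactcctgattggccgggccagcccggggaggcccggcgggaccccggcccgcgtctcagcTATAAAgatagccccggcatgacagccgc
SCG3: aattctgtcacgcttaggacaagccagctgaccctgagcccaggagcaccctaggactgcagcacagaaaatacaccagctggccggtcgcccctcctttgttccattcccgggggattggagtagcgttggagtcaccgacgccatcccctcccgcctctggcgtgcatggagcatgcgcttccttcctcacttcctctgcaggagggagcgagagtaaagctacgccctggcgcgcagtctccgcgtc

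CHGA and VGF each held 1 TGACGTCA element, the site bound by CREB proteins, as 578 of 35116 RefSeq promoters did (1.65%). In CHGA the element ran from base -54 to -47 before the start, and in VGF from -79 to -72. VGF was the only one of the 6 promoters with CACGTG, at -54 to -49, against 6.34% of all promoters. SCG3 held neither CACGTG nor any other motif searched in this window. NPY also held none of them. TATAAA was found in 10.7% of all promoters and in VIP, VGF and INSM2, with 1 match at -29 to -24 in INSM2. VGF had 1 match at -32 to -27. The 3 matches in VIP lay at -157 to -152, -147 to -142 and -30 to -25. The core and the shorter TATA form were searched after the sequences had been seen. Of all promoters 21.2% held TGACG. The short TATA form was in 18.9%. VIP carried TGACG at -89 to -85 and again at -79 to -75, a separate pair of cores with no full element, and CHGA carried TATAA at -29 to -25.

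Base composition set VIP apart from the other 5 promoters. VIP had 34.0% G and C and 2 CpG dinucleotides in its 250 bases. INSM2 had 74.8% and 30 CpG, NPY 71.6% and 24 CpG, CHGA 68.8% and 21 CpG, VGF 66.0% and 27 CpG, and SCG3 61.6% and 16 CpG. VIP was also the only one of the 6 without a control siRNA peak. A link between base composition and peak call was not tested. A check of base composition over all 10 members is void, because 6 of them (60.0%) had a sequence here. Whether each RefSeq start is the start used in the deposited tables, which follow hg19, was not tested.

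**Figure D1:**
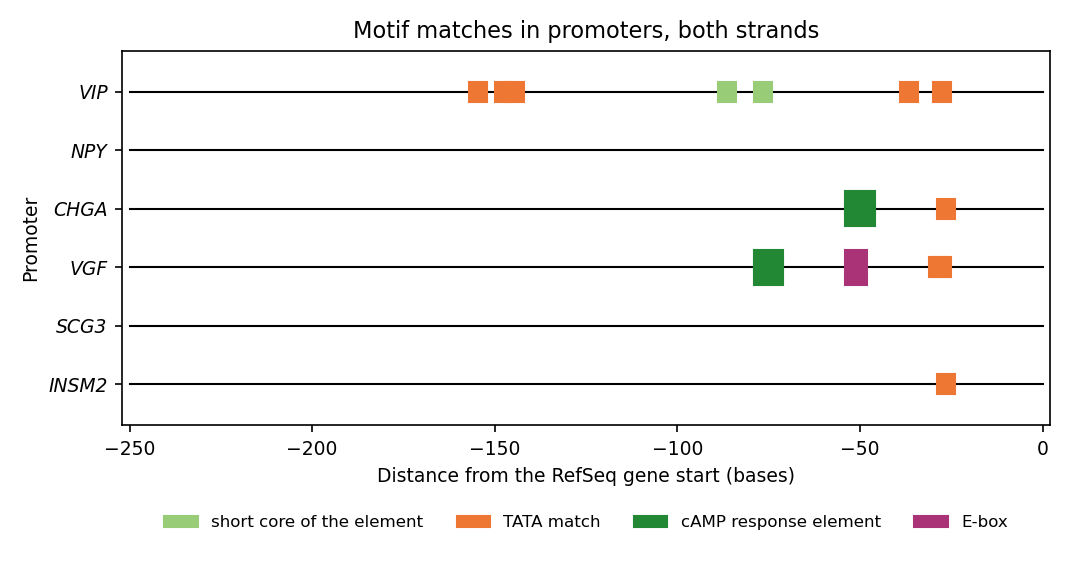
Matches to 4 kinds of motif on either strand (coloured boxes) in the 250 bases before the RefSeq gene start of 6 promoters, with the distance from the start in bases on the horizontal axis. The cAMP response element of CHGA begins at -54 and that of VGF at -79, VIP has TGACG cores at -89 and -79, and NPY and SCG3 have no box.

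The first comparison asked whether each gene carried an H3K4me3 peak within 1 kb of its transcription start site (TSS) after WDR5 siRNA and after control siRNA. The files give a list of gene names for each library and no peak height, read number or p-value. With WDR5 siRNA the list held 11870 distinct names, and with control siRNA it held 13618. The members were present in both lists for the most part, with 9 of 10 listed after WDR5 siRNA and 9 of 10 after control siRNA. A peak in both libraries was listed for 8 of the 10, against 85.8% of all 13715 names with a peak in either list, so the members' share lay near the background. A listing in both libraries does not show that the H3K4me3 level was the same in them. No value in the files measures WDR5 itself, so the depletion of WDR5 was not checked here.

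All 5 granins of the list were listed in both libraries, as were 85.8% of all names with a peak in either list. They are CHGA and CHGB, the chromogranins, which are the main soluble proteins of chromaffin granules, SCG2, or secretogranin II, the precursor of secretoneurin, SCG3, which tethers chromogranin A to the granule membrane, and VGF, a nerve growth factor-inducible peptide precursor. Each granin had 1 row in the WDR5 siRNA list and 1 row in the control siRNA list. Both regulators, INSM1 and INSM2, were likewise listed once in each library. SCG5, a secretogranin gene by its symbol, was placed below with the processing genes and was listed only with control siRNA.

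The peptide hormone genes split 3 ways. NPY, which encodes neuropeptide Y, was listed with WDR5 siRNA and with control siRNA. GAL, which encodes galanin, was not listed with WDR5 siRNA and was listed with control siRNA. VIP, which encodes vasoactive intestinal peptide, was listed with WDR5 siRNA and not with control siRNA. GAL was thus 1 of 9 members with a control siRNA peak that had no WDR5 siRNA peak, against 13.5% of all control siRNA names (1845 of 13618). VIP was 1 of 9 members with a WDR5 siRNA peak that had no control siRNA peak, against 0.817% of all WDR5 siRNA names (97 of 11870). Each of these counts is a single gene in a single pair of libraries.

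**Figure D2:**
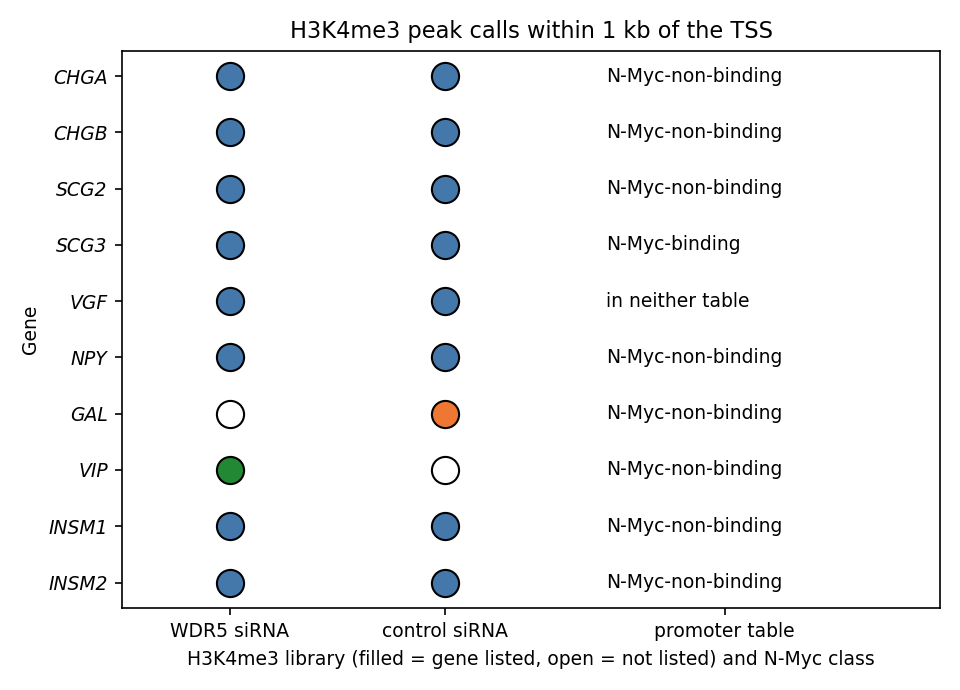
Peak calls of the 10 members in the WDR5 siRNA and control siRNA H3K4me3 libraries (filled circle, gene listed; open circle, not listed), with the promoter table that holds each gene. Blue marks the 8 genes listed in both, orange GAL, listed only with control siRNA, and green VIP, listed only with WDR5 siRNA.

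Both lists of names run in genome order within a chromosome. Tabulated start positions rose in 3199 of 3200 neighbouring pairs of the WDR5 siRNA list and 3553 of 3557 of the control siRNA list. The names around each member thus show the calls at its listed neighbours only, since a gene with no peak in that library is absent from its list. GAL was followed in the control siRNA list by MTL5, a testis-expressed gene, which was also listed only with control siRNA. The MTL5 start, in the N-Myc-binding table, was the nearest other tabulated start to GAL, 67.0 kb away. The name before GAL, PPP6R3, was listed in both. VIP lay between SYNE1 and FBXO5 in the WDR5 siRNA list, and all 10 names within 5 places of VIP in that list were listed in both libraries, as nearly all names of that list were (all but 0.817%). The nearest tabulated start to VIP, that of MYCT1 at 52.9 kb, was in neither list. For the 9 members in the control siRNA list, 82 of the 90 flanking names of that list were listed in both and 8 (8.89%) only with control siRNA, against 13.5% of all its names. CHGB was preceded by C20orf196 and NPY by FAM221A, each of which had a control siRNA peak alone.

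The second comparison concerned N-Myc, the MYC-family factor encoded by MYCN, through the 2 promoter tables that the authors split by N-Myc binding. Nearly all members with a tabulated promoter stood in the non-binding table. Of the 9 such members 1 was N-Myc-binding, against 33.9% of all 9585 tabulated promoters. The N-Myc-binding member was SCG3, with its TSS on chromosome 15 at position 51973550 of hg19. The other 8 were non-binding, and VGF had no row in either table used here. The sources used here do not state how N-Myc binding was called.

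The non-binding promoters of the chromogranins were those of CHGA on chromosome 14 at position 93389445 and of CHGB on chromosome 20 at 5891974. SCG2 had its TSS on chromosome 2 at 224467217. Among the peptide genes, NPY lay on chromosome 7 at 24323807, GAL on chromosome 11 at 68451983 and VIP on chromosome 6 at 153071932. INSM1 lay on chromosome 20 at 20348765 and INSM2 on chromosome 14 at 36003248. The nearest other tabulated start was 39.3 kb away for CHGB, that of MCM8, and farther for the others, up to 312.1 kb for INSM1.

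No header explains in what order the promoter tables run, but the members were spread over it from one end to the other. The tables are titled as H3K4me3 quantification. Whether their order comes from the same libraries as the calls was not tested. Row position is therefore not evidence separate from the peak call. In the non-binding table of 6331 rows, INSM2 held row 4, CHGA row 251, INSM1 row 762, NPY row 930 and CHGB row 2154. GAL held row 3074, or 48.6% of the table length. VIP held row 6296 (99.4%) and SCG2 row 6307 (99.6%), 11 rows apart near the end of the table. In the N-Myc-binding table of 3254 rows, SCG3 held row 2892 (88.9%).

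The calls of the surrounding rows differed from member to member. Among the 101 rows centred on each of CHGA, INSM1 and NPY, and the first 54 rows around INSM2, every promoter belonged to a gene listed in both libraries. Around CHGB 98 of 101 did and 3 were listed only with control siRNA. Over all non-binding promoters, 47.7% were listed in both and 41.4% in neither list. The order of that whole table went with the call, whichever gene a row held. Each 5% bin down to row 1266 was at 100% listed in both. Median positions were 23.9% of the table for promoters listed in both, 51.5% for control-only ones and 78.4% for those in neither list. Around SCG3, in the binding table, 71 of 101 were listed in both and 29 (28.7%) only with control siRNA. In the whole N-Myc-binding table these shares were 90.9% and 3.96%. GAL stood where control-only calls were common, with 53 of 101 rows (52.5%) listed only with control siRNA and 47 in both, against 10.4% control-only promoters in the whole non-binding table. GAL thus had the commoner call of its stretch of rows.

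VIP stood where the few WDR5-siRNA-only promoters were gathered. Of the 86 rows around VIP, up to the end of the table, 17 (19.8%) were listed only with WDR5 siRNA, 8 in both, 1 only with control siRNA and 60 in neither list. The whole non-binding table held 34 such promoters (0.537%), and VIP was number 21 of them in row order. The row after VIP held SEMA3A, a semaphorin that repels growing axons, which was also listed only with WDR5 siRNA, and the row before held CNTN1, a neuronal adhesion molecule in neither list.

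SCG2 differed from the other granins in its rows. Around SCG2, 51 of 75 rows (68.0%) were in neither list, 15 only in the WDR5 siRNA list and 8, with SCG2 among them, in both. These 75 rows all lie within the 86 rows around VIP, so the counts for SCG2 and VIP overlap. Of the 3019 non-binding promoters listed in both, 3012 stood before SCG2 and 6 after it. The adjoining rows held CLIC5 and KCNRG, both in neither list. Calls were joined to promoters by gene name, so a peak at another start of a gene can count for its tabulated promoter, SCG2 included. For INSM2, at the other end, the adjoining rows held DUSP4 and HOOK3, for CHGA they held MIER3 and KLF6, and all 4 were listed in both. The rows beside GAL held GABRG3, a receptor subunit for the transmitter GABA listed only with control siRNA, and TMEM45B, listed in both. The rows next to CHGB (CDH22 and CTR9), NPY (PURG and CSNK1A1), INSM1 (PDZD4 and ARMC10) and SCG3 (MOCS2 and RPS24) were all listed in both.

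**Figure D3:**
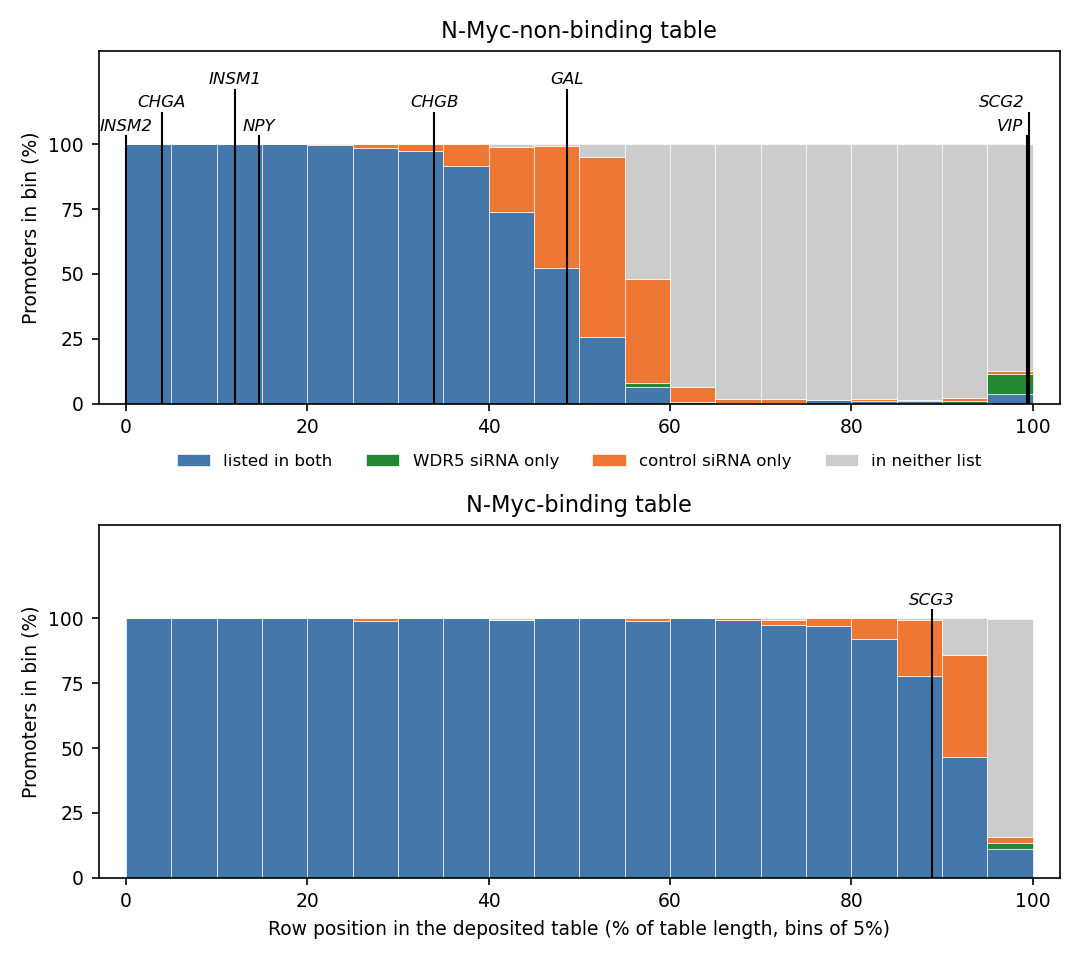
Share of promoters with each peak call (vertical axis, percent) in successive bins of 5% of the rows of the N-Myc-non-binding table (top) and the N-Myc-binding table (bottom), with black lines at the rows of the members. INSM2, CHGA, INSM1 and NPY stand where nearly all promoters are listed in both, GAL at 48.6% where control-only calls are common, and VIP and SCG2 past 99% beside the WDR5-siRNA-only promoters.

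The third comparison placed the members beside genes that act with them, in lists drawn from general knowledge. Genes of granule biogenesis and prohormone processing were listed mainly in both libraries. Of 30 genes, 19 had a peak with WDR5 siRNA and 25 with control siRNA, and 6 of those 25 (24.0%) were listed only with control siRNA, beside the background of 13.5%. The 6 were PCSK1, the convertase that makes the first cuts in many prohormones, CPE, the carboxypeptidase that trims the cut ends, SCG5, which encodes the chaperone 7B2 of the second convertase, QPCT, which forms pyroglutamate ends on peptides, RAB3B, a vesicle GTPase, and PICK1, a membrane-shaping protein of immature granules. PCSK1 and SCG5 were non-binding promoters at 53.7% and 51.5% of the table. Like GAL, they stood near the median of all control-only non-binding promoters (51.5%). CPE and PICK1 were N-Myc-binding promoters. Among the 19 listed in both were PCSK2, the second convertase, PCSK1N, which encodes the granin-like inhibitor proSAAS, PCSK6 and CPD. By exact name 5 were in neither list, namely SYTL4, RAB27A, FURIN, CCDC186 and EIPR1. Under the older names C10orf118 and TSSC1, CCDC186 and EIPR1 were listed in both, which raises that count to 21.

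Other neuropeptide genes were mostly unlisted, and those with a peak were listed mainly with control siRNA alone. Of 40 genes, 5 had a peak with WDR5 siRNA and 15 with control siRNA. Of those 15, 10 (66.7%) were absent after WDR5 siRNA, against 13.5% of all control siRNA names. That background holds both N-Myc classes, while the 20 tabulated genes of this list were all non-binding. Among all non-binding promoters 656 were control-only and 3019 listed in both, and among binding ones 129 and 2958. The 10 control-only genes of this list were POMC, the precursor of corticotropin and melanocortins, CRH and UCN of the corticotropin-releasing family, CARTPT, CALCA, NMU, NPPB, NPB, PTHLH and PYY, a relative of neuropeptide Y. The 5 listed in both were ADCYAP1, which encodes PACAP, a peptide related to that of VIP, and CALCB, NMB, NPPC and ADM. TAC1, TAC3, SST and CCK were among the 25 in neither list. Of the 10 control-only genes 4 had a tabulated promoter, all N-Myc-non-binding, at 43.3% to 97.0% of the table (median 50.4%), and the 4 tabulated ones listed in both stood at 22.7% to 47.3% (median 30.1%). Over all non-binding promoters the medians were 51.5% for control-only ones and 23.9% for those listed in both. No gene of this list was listed only with WDR5 siRNA, a call held by 0.817% of all WDR5 siRNA names. With only 5 of the 40 genes in that library's list, the lack of such a call lay near the background. VIP was the single neuropeptide gene examined that had it.

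Receptors for the members' peptides gave 3 of 11 with a WDR5 siRNA peak and 6 with a control siRNA peak. NPY2R, GALR1 and VIPR2, 1 receptor each for neuropeptide Y, galanin and VIP, were listed in both. VIPR1, ADCYAP1R1 (the PACAP receptor) and NPY4R were listed only with control siRNA, so 3 of the 6 control siRNA names were absent after WDR5 siRNA, against 13.5% in the background. The 7 tabulated receptor genes were all N-Myc-non-binding, while that background holds both classes. NPY4R has a near-identical copy in the genome, so its call is uncertain. NPY1R, NPY5R, NPY6R and GALR2 were among the 5 in neither list. GAL itself was listed only with control siRNA while the galanin receptor gene GALR1, at 45.5% of the non-binding table, was listed in both.

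Most neuroendocrine transcription regulators with a peak were listed in both libraries, as were 85.8% of all names with a peak in either list. Of 20 genes, 15 had a peak with WDR5 siRNA and 14 with control siRNA, and all 14 were listed in both, so 0 were control-only against 13.5% in the background. They include the proneural factors NEUROD1 and NEUROG2, REST, the repressor that silences many granin and neuronal genes outside neurons, and RCOR1, a corepressor of REST. CREB1, CREM, ATF1 and ATF2 were also among the 14. MYT1L, a neuronal zinc finger factor, was listed only with WDR5 siRNA and stood at row 6329 of 6331, in the same stretch of rows as VIP. NEUROD2, NEUROG1, ST18 and NKX2-2 were among the 5 in neither list.

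The label of the line was checked against markers. All 9 adrenergic neuroblastoma markers had a control siRNA peak, as did 13618 of the 16500 distinct names. Of those 16500, 13715 had a peak in either list, so this share is no background over all genes. What a control siRNA peak says about the cell type was not tested. Of the 9, 6 also had a WDR5 siRNA peak. TH, DBH and DDC (33.3%) were listed only with control siRNA, against 13.5% of all control siRNA names. All 9 markers were N-Myc-non-binding, while that background holds both classes. None of 14 markers of blood, epithelium, liver, heart muscle, endothelium and Schwann cells was in either list. Of these 14, 7 had a tabulated promoter. Over all non-binding promoters 41.4% were in neither list. An unlisted name can also be a gene that the authors' annotation named otherwise.

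**Figure D4:**
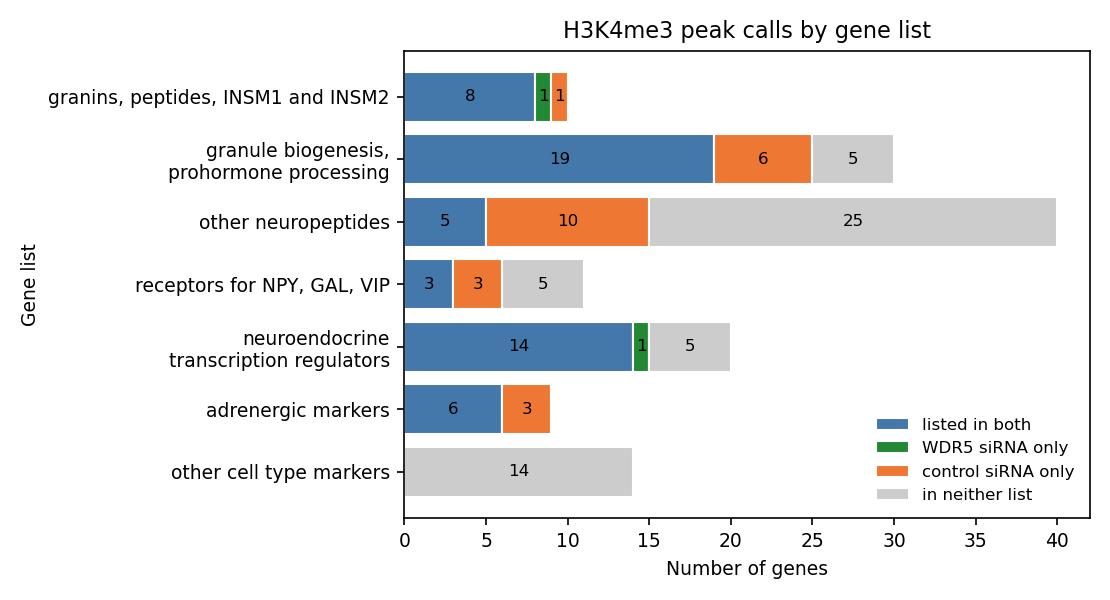
Number of genes with each H3K4me3 peak call (horizontal axis) in the 10 members, in 4 lists of related genes and in 2 lists of cell type markers. Names were matched exactly, so CCDC186 and EIPR1 count as in neither list. Control-only calls (orange) number 10 among other neuropeptides and 0 among neuroendocrine regulators, and WDR5-siRNA-only calls (green) are VIP and MYT1L.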

How the data were processed

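H3K4me3 was profiled by ChIP-seq in BE(2)-C cells 24 hours after siRNA. Per the submitters' processing notes, the authors used hg19 with BWA 0.7.12 and bedtools, whose roles are not stated. The peak caller, with its threshold and control, was not given in the sources used here. The deposited files hold gene names with a peak within 1 kb of the TSS, per the file headers, and 1 bp TSS intervals with gene names, so depth is unknown and no measured unit exists. Planned levels, ratios, pseudocounts and low-value filters could not be computed. IgG and input libraries were not used here.

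Names were matched exactly and classed by listing. Interval ends were taken as 1-based TSS positions. Row windows span 50 rows either side. Members and gene lists were chosen with earlier results of these data known. Named genes were all members, listed-in-1-library genes of each list, the first 4 listed in both and up to 4 in neither, row neighbours and nearest tabulated starts. MTL5, C20orf196, FAM221A, PPP6R3, SYNE1, FBXO5, ADM, SYTL4, RAB27A and FURIN with the renamed genes were named after their values were seen. CREB1, CREM, ATF1 and ATF2 were named in the same way. One gene of the regulator list is not reported here. The classing step was run on made-up names of known class, which checks that step alone and not the matching of real names. Python 3.11.15, numpy 2.4.6 and matplotlib 3.10.9 were used.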

Additional observations from a re-analysis of the deposited data

How the results depend on the processing

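Leaving out a replicate was not possible. No paired analysis was possible because each siRNA had 1 H3K4me3 library and the result comes from no test. Matching RefSeq synonyms and keeping names with a single row left the 8 members listed in both, GAL and VIP as they were, and left the counts of the 4 related lists within 1.5 times. The synonyms raised genes of granule biogenesis and prohormone processing listed in both to 21, against 19. Among names in a promoter table the background share listed only with control siRNA was 11.6%, against 13.5% of all control siRNA names. The median row position of the 8 non-binding members, 24.4% of the table, was 23.5% among promoters with no other tabulated start within 2 kb. For the 6 of them listed in both, it was 28.0% when ranked among promoters listed in both, against 13.4% in the whole table, because that ranking leaves out the other promoters, and CHGB stood at 71.0% against 34.0%. Pseudocounts and level filters were not run, since the tables hold no levels. A missing name is a missing call at unknown depth and does not show absence of H3K4me3.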
